A study of Mus musculus with 12 samples.

Results

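MC38 is a mouse colon carcinoma line, and its early transcriptional response to the MEK inhibitor GDC-0623 was read from 6 of the 12 arrays of the series. These were the 3 arrays of cells kept for 24 h with 100 nM GDC-0623 and the 3 arrays of cells kept for 24 h with the solvent DMSO at the matching concentration. They were picked by their treatment label alone, so no measured value entered the choice. The cells were seeded as a monolayer, the inhibitor was added on the next day, and the control cells received the solvent only. The labels call the 3 arrays of a group biological replicates. The 6 remaining arrays held the same treatments after 72 h and serve below as a second time point that shares no array with the first. The comparison asks how tumor cells cultured without other cell types answer the inhibitor within a day.

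MEK is the kinase that phosphorylates and activates ERK, and ERK in turn controls growth factor responsive transcription, cell cycle entry, protein synthesis and its own feedback inhibitors. In colon cancer cells the pathway is often driven from upstream by mutated RAS or RAF proteins. ERK activity also restrains differentiation programmes and signalling through other pathways, so an inhibitor can raise transcripts as well as lower them.

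Expression is given as RMA values, that is log2 probe set intensities after background correction, quantile normalization and summary over the probes, which the authors deposited. A difference of 1 is a 2-fold change. Values below about 5 were treated as dim, since RMA gives no detection call and a fold change that starts from such a value depends on the background. The 6 arrays separated by treatment on the first principal component, which held 68.6% of the variance. GDC-0623 replicate 1 stood at 38.9 on it against 27.1 and 26.2 for replicates 2 and 3, while the DMSO arrays stood at −28.7, −32.3 and −31.2. Replicate arrays differed little, with a median standard deviation of 0.0850 in DMSO and 0.0971 with GDC-0623. Of 16 epithelial markers, 11 were below 5 in both groups and none reached 6 in DMSO, although MC38 is described as a carcinoma line. Cdh1 (2.62 in DMSO), Krt18 (2.81) and Vil1 (3.39) were among the dim ones. Epcam, Krt8, Cdx2, Cldn3 and Elf3 stood between 5 and 6 in DMSO, at 5.37, 5.17, 5.08, 5.90 and 5.72. Of 14 mesenchymal markers, 12 reached 6 in DMSO, among them Vim at 13.61, and 7 rose with GDC-0623. For comparison, 13.3% of all genes were called higher, and 21% of those with a mean of at least 5 over the 6 arrays. Col1a1 and Thy1 were dim, both at 4.20 in DMSO. The mean of the 14 per array was 8.80 to 8.94 in DMSO and 9.29 to 9.34 with GDC-0623. Leukocyte and endothelial markers were mostly dim, with 8 of 14 and 9 of 10 below 5 in both groups. Among these, Cd14 fell by 0.35, a call lost without DMSO replicate 1 or 2 or without GDC-0623 replicate 2 (adjusted p = 0.0572 to 0.0665), and no other marker of either class passed the test. In bulk RNA, fewer cells of a type and less RNA per cell cannot be told apart.

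One probe set was used for each of 18193 genes. With GDC-0623, 2421 genes were higher, which is 13.3% of the genes tested, and 1497 were lower, which is 8.23% (limma, Benjamini-Hochberg adjusted p under 0.05 over all probe sets). Rises were larger than falls. At least 2-fold changes were found in 285 higher and 52 lower genes, at least 4-fold changes in 49 and 7, and at least 8-fold changes in 10 and 2. The arrays of the groups did not overlap for 3851 genes in the upward direction (21.2%) and for 3638 in the downward direction (20%), and the members below are read against these shares. Few dim genes were called. Of the genes with a mean under 5 over the 6 arrays, 4.49% were called, against 33.4% of those at 5 or above, where 21% were higher and 12.4% lower. Genes in the range from 6 to 7 were called higher in 25.5% and lower in 8.80% of cases, whereas from 9 to 10 the shares were 19.4% and 17.9%. Without DMSO replicate 1, 2 or 3 the count of lower genes was 978, 935 or 957.

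Quantile normalization gives all arrays nearly the same distribution, so these values no longer hold a change that most genes have in common. The spiked hybridization controls, 18 probe sets, had means of 10.43, 10.35 and 10.27 on the DMSO arrays and 10.15, 10.12 and 10.32 on the GDC-0623 arrays, which overlap. By the paper, a fixed amount of labelled RNA of each sample was hybridized. These controls therefore cannot show a change in RNA per cell, and scaling to them serves only as an alternative. When the arrays were scaled to these controls, the median of all genes moved up by 0.15 on the log2 scale, and 3407 genes were higher and 416 lower. Higher genes then made up 89.1% of the calls, against 61.8% with the deposited scaling. When each group was shifted as a whole, which leaves the spread within groups as deposited, 4922 genes were higher and 630 lower, and 88.7% of the calls were higher. Changes below are therefore relative to the median of all genes, which was −0.03. For each list with lower members, the counts under both control scalings are given in the same paragraph.

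**Figure D1:**
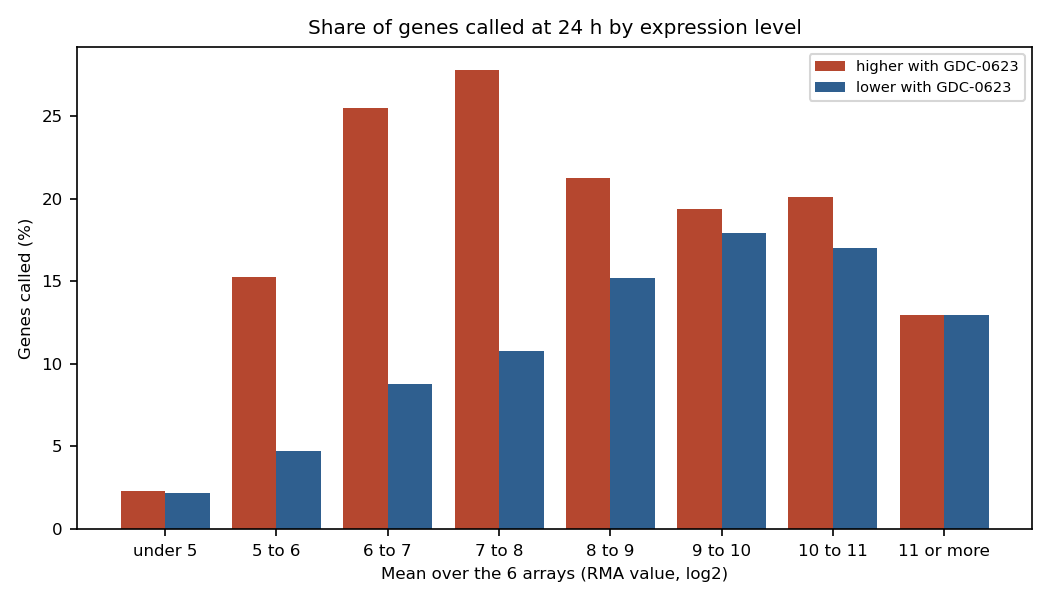
Share of genes called higher or lower with GDC-0623 at 24 h (y axis, percent) by the mean RMA value over the 6 arrays (x axis, log2), over 18193 genes. Calls in both directions are rare under 5, higher genes are most frequent from 7 to 8 at 27.8%, and lower genes from 9 to 10 at 17.9%.

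The 30 largest rises outside ERK output and interferon genes ran from 4.95-fold to 34.0-fold. Serpinb1a, an intracellular inhibitor of serine proteases, read 3.98, 3.68 and 3.57 in DMSO and 9.38, 8.30 and 8.81 with GDC-0623. All 3 DMSO values were dim, so the 34.0-fold rise is a fold over a background value (log2 fold change 5.09 ± 0.23, adjusted p = 3.58e-06). Ogn, osteoglycin, a small leucine-rich proteoglycan, read 5.93, 5.65 and 5.46 in DMSO and 10.15, 9.90 and 9.98 with GDC-0623, which is a 20.1-fold rise from a level that was low but above 5 (log2 fold change 4.33 ± 0.12, adjusted p = 1.97e-07). A further pair of this proteoglycan family rose as well. Fibromodulin, Fmod, which binds collagen fibrils, read 3.51, 3.31 and 3.58 in DMSO and 5.98, 5.99 and 6.82 with GDC-0623, a 6.95-fold rise (log2 fold change 2.80 ± 0.20, adjusted p = 3.21e-05). Osteomodulin, Omd, read 3.97, 4.45 and 4.43 in DMSO and 6.78, 6.67 and 6.86 with GDC-0623, a 5.60-fold rise (log2 fold change 2.49 ± 0.13, adjusted p = 6.42e-06). Both started from dim values on every DMSO array, and the groups were separated by more than 2 on the log2 scale.

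Further genes among these rises were the collagen-associated Dpt, dermatopontin (2.53 ± 0.30), the TGF-beta induced matrix protein Tgfbi (2.60 ± 0.34), the matrix-associated Ccdc80 (3.12 ± 0.20) and the crosslinking enzyme Tgm2. Tgm2, transglutaminase 2, read 5.93, 5.80 and 5.72 in DMSO and 8.63, 8.41 and 8.49 with GDC-0623, with a narrow spread in both groups (log2 fold change 2.69 ± 0.09, adjusted p = 5.15e-07), and 5 of its 6 probe sets were called higher. The ligand Tgfb2 read 4.27, 4.23 and 4.23 in DMSO and 7.34, 6.83 and 6.65 with GDC-0623 (log2 fold change 2.70 ± 0.15, adjusted p = 9.77e-06), and its 4 probe sets were all higher. Tgfbi varied more, with 5.45, 4.99 and 4.33 in DMSO and 8.21, 7.48 and 6.88 with GDC-0623, and had the highest adjusted p of the 30 rises at 8.10e-04. The aggrecan-degrading protease Adamts5 read 5.44, 5.43 and 5.82 in DMSO and 7.98, 7.81 and 7.95 with GDC-0623 (log2 fold change 2.35 ± 0.11, adjusted p = 4.50e-06), the membrane peptidase Mme, neprilysin, rose by 2.74, the serine protease Prss23 by 3.14, and the metalloproteinase inhibitor Timp3 by 3.08 in 4 of 4 probe sets. Timp3 varied by over 1 within both groups, at 5.59, 5.13 and 4.44 in DMSO and 8.91, 7.84 and 7.64 with GDC-0623. Its groups did not overlap, which was a condition for naming it.

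A receptor and a ligand of the R-spondin system, which strengthens WNT signalling, rose together while a WNT ligand fell. Lgr4, a receptor for R-spondins, was already well expressed and read 8.94, 8.99 and 9.01 in DMSO and 11.66, 11.40 and 11.29 with GDC-0623, a 5.54-fold rise (log2 fold change 2.47 ± 0.10, adjusted p = 2.02e-06), with 1 of its 2 probe sets called. Rspo2, an R-spondin, rose from dim values of 4.13, 4.09 and 3.85 to 6.96, 6.31 and 6.20 (log2 fold change 2.47 ± 0.18, adjusted p = 3.21e-05), also in 1 of 2 probe sets. Wnt7b, a secreted WNT ligand, read 9.99, 10.05 and 9.70 in DMSO and 7.70, 8.63 and 8.17 with GDC-0623, a 3.36-fold fall found by both of its probe sets (log2 fold change −1.75 ± 0.20, adjusted p = 4.24e-04). In each of these 3 genes the groups lay more than 1 apart on the log2 scale. The secreted guidance protein Sema3c and the lysophosphatidic acid receptor Lpar4 were further signalling genes among the rises, at 3.04 ± 0.19 and 3.02 ± 0.11, the latter from a dim mean of 3.43.

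The keratins Krt16 and Krt14, intermediate filament proteins of stratified epithelia, rose by 3.30 and 2.58 from dim means of 4.48 and 3.59, while Krt8 and Krt18 of simple epithelia were at −0.07 ± 0.08 and 0.01 ± 0.08 and did not pass. Tubb2b, a beta tubulin, read 4.84, 4.47 and 4.26 in DMSO and 7.57, 7.18 and 7.08 with GDC-0623 (log2 fold change 2.75 ± 0.16, adjusted p = 1.18e-05). Acta2, smooth muscle actin, rose by 2.45 on 1 of its 3 probe sets. The actin-associated Synpo, synaptopodin, the Cdc42 effector Cdc42ep2 and the microtubule-associated kinase Dclk1 rose by 2.44, 2.38 and 2.31. Cdc42ep2 read 7.06, 7.09 and 7.08 in DMSO and 9.81, 9.32 and 9.25 with GDC-0623. The remaining large rises were the small heat shock protein Cryab (3.92), the ferritin receptor Scara5 (2.42), the adenylate kinase Ak1 (2.39), Olfr288, annotated as an olfactory receptor (2.60), Tmem140 (3.09) and Lrrn4cl (2.33). For 13 of the 30 rises the DMSO mean was under 5, so these folds start from background values.

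**Figure D2:**
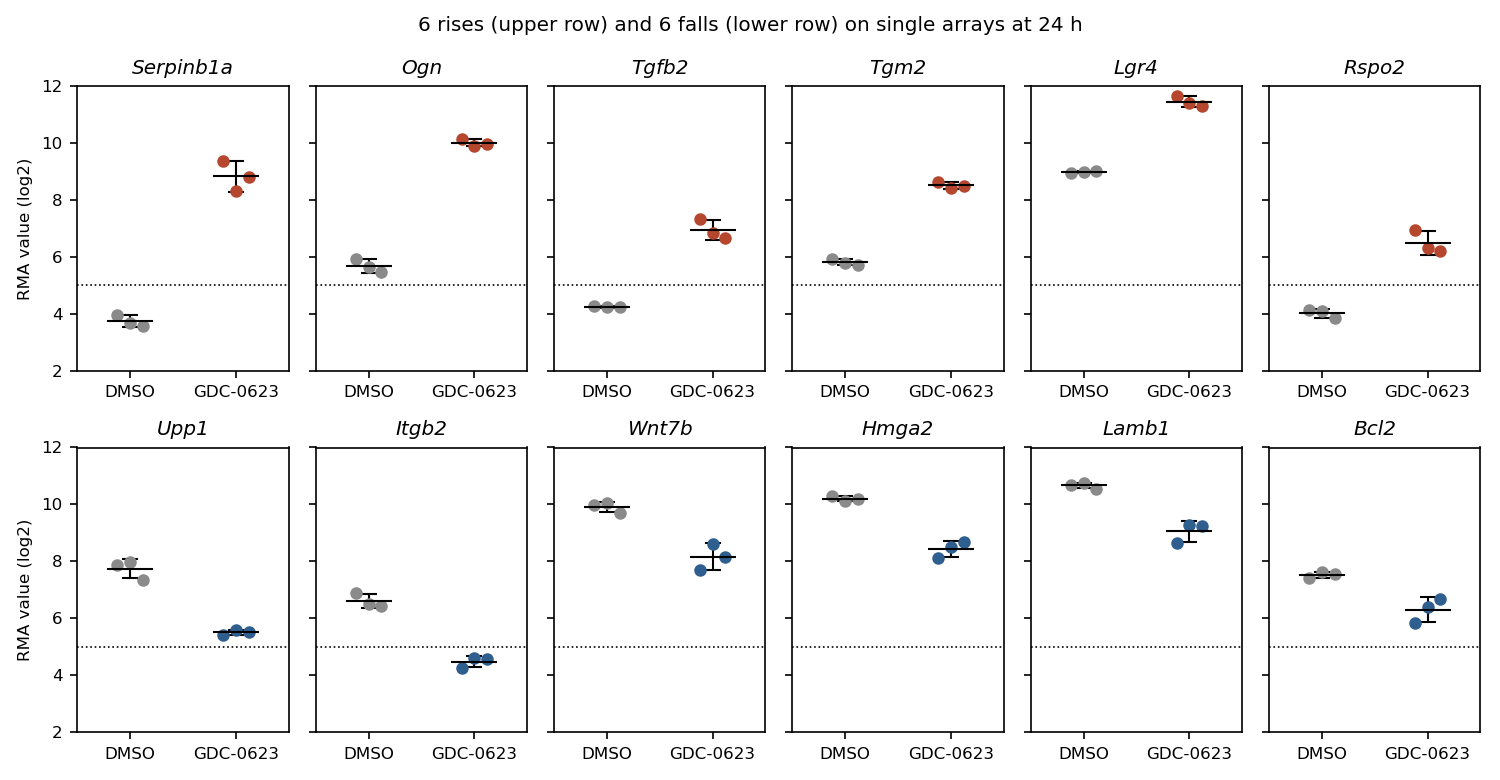
RMA values (y axis, log2) of 12 genes on the single arrays at 24 h, for DMSO and GDC-0623 (x axis). Points are arrays, in the order of replicates 1, 2 and 3, long bars are means, error bars are standard deviations (n = 3), and the dotted line marks 5; Serpinb1a, Tgfb2 and Rspo2 lay below that line on all DMSO arrays, and Itgb2 on all GDC-0623 arrays.

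The 30 largest falls were smaller, from 2.07-fold to 4.65-fold. Upp1, uridine phosphorylase, which breaks down uridine, read 7.86, 7.99 and 7.36 in DMSO and 5.42, 5.60 and 5.54 with GDC-0623 (log2 fold change −2.22 ± 0.14, adjusted p = 1.95e-05). Itgb2, the beta chain of leukocyte integrins, read 6.89, 6.50 and 6.42 in DMSO and 4.26, 4.60 and 4.59 with GDC-0623 and so became dim on every treated array (log2 fold change −2.12 ± 0.14, adjusted p = 1.75e-05). Kcnk2, a background potassium channel, read 7.19, 7.37 and 6.95 in DMSO and 4.95, 5.50 and 5.63 with GDC-0623 (log2 fold change −1.81 ± 0.17, adjusted p = 1.39e-04). The falls of Upp1, Itgb2 and Kcnk2 each rest on a single probe set. Hmga2, an architectural chromatin protein that is high in many tumors, read 10.31, 10.12 and 10.20 in DMSO and 8.12, 8.52 and 8.68 with GDC-0623 and fell on all 4 of its probe sets (log2 fold change −1.77 ± 0.13, adjusted p = 3.68e-05).

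Lamb1, the laminin beta 1 chain of basement membranes, read 10.70, 10.75 and 10.55 in DMSO and 8.64, 9.29 and 9.26 with GDC-0623, and 3 of 4 probe sets were lower (log2 fold change −1.60 ± 0.16, adjusted p = 1.72e-04). Parvb, a partner of integrin-linked kinase, changed by −1.18, Cxadr, a junctional adhesion protein, by −1.08, and the lectin-like receptor Clec1a by −1.05. Falls were also found in the myo-inositol transporter Slc5a3, which fell by 1.25 from a high level of 11.37, the lysophospholipid transporter Mfsd2a (−1.53), Slc22a23 (−1.34), the natriuretic peptide clearance receptor Npr3 (−1.34), the lipoprotein receptor Lrp8 (−1.22) and Sigirr, an inhibitor of interleukin-1 and Toll-like receptor signalling (−1.64).

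Bcl2, an inhibitor of apoptosis, read 7.42, 7.63 and 7.56 in DMSO and 5.85, 6.41 and 6.68 with GDC-0623, with 3 of 5 probe sets lower (log2 fold change −1.22 ± 0.18, adjusted p = 0.00146). Gsdme, a gasdermin that forms membrane pores, read 7.16, 7.09 and 7.15 in DMSO and 5.47, 5.84 and 5.92 with GDC-0623 (log2 fold change −1.39 ± 0.11, adjusted p = 5.75e-05), and Dffb, the nuclease that cuts DNA in apoptosis, read 9.42, 9.87 and 9.45 in DMSO and 8.17, 8.66 and 8.54 with GDC-0623 (log2 fold change −1.12 ± 0.15, adjusted p = 9.53e-04). The groups did not overlap for any of the 3 genes, which was a condition for naming them. Prkg2, a cGMP-dependent kinase, fell by 1.55, and the kinases Sgk1 (−1.16), Dyrk3 (−1.16) and Mast4 (−1.10) fell as well. The remaining falls were those of Evi2a (−1.77), the zinc finger factor Hivep3 (−1.71), Phlda2, an imprinted growth regulator (−1.18), the prolyl isomerase Fkbp11 (−1.12), the membrane peptidase Phex (−1.13), 2010204K13Rik (−1.15), the folate cycle enzyme Shmt1 (−1.05) and the acid phosphatase Acpp. Acpp had the highest adjusted p of the 30 falls, at 7.30, 6.26 and 5.75 in DMSO and 5.21, 5.29 and 4.93 with GDC-0623 (log2 fold change −1.29 ± 0.31, adjusted p = 0.0201). Its call was lost without GDC-0623 replicate 1 (adjusted p = 0.0641) or 3 (adjusted p = 0.0768) and with a trended and robust prior (adjusted p = 0.102), while no other of these falls and none of the 30 rises lost its call in any alternative.

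GDC-0623 replicate 1 lay farthest from the DMSO mean in 28 of the 30 rises and 26 of the 30 falls. Without that array the median of the rises was 2.49 instead of 2.65 and that of the falls was −1.16 instead of −1.27. At 72 h the array numbered 1 was likewise the farthest of the GDC-0623 arrays in 29 of these rises and 25 of these falls, and it was so at both times in 28 and 22. Deviations from the group mean correlated at 0.289 over all probe sets between the GDC-0623 arrays numbered 1 of both times, against 0.0618 and 0.159 for those numbered 2 and 3. The sources used here do not say whether arrays of one number shared a batch of cells, and what set these arrays apart was not tested.

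Probe sets of one gene differed in size of change. With the probe sets of each gene averaged, 14 of the 30 rises and 9 of the 30 falls were smaller by more than 1.5 times, and each kept its call. The averaged log2 fold change was 3.36 for Serpinb1a, 2.60 for Cryab, 1.86 for Ccdc80, 1.67 for Tmem140, 1.50 for Krt14, 1.40 for Adamts5 and 1.33 for Dclk1. It was 1.31 for Synpo, 1.23 for Scara5, 1.21 for Fmod, 1.16 for Rspo2, 1.14 for Ak1, 1.14 for Lgr4 and 0.87 for Acta2. Among the falls it was −0.87 for Evi2a, −0.82 for Npr3, −0.73 for Parvb, −0.69 for Phex, −0.63 for Bcl2, −0.51 for Hivep3, −0.49 for Cxadr, −0.47 for Fkbp11 and −0.32 for Mast4.

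Promoter windows were available for 14368 of the genes, and the first rises and falls by size that had one are printed to show what precedes genes at the extremes of the response. The sequences are those of RefSeq on GRCm38.p6 and hold the 250 bases before the annotated start, 5′ to 3′ on the strand of the gene. Ogn is on the plus strand at chr13:49607765-49608014, Prss23 on the minus strand at chr7:89527188-89527437, Upp1 on the plus strand at chr11:9117758-9118007 and Kcnk2 on the minus strand at chr1:189402274-189402523. For Prss23, Upp1 and Kcnk2 the table held 7, 3 and 4 windows, of which the first is shown. Capitals mark matches, on either strand, to the letters of AP-1 (TGANTCA), a cAMP response element (TGACGTCA), an E-box (CACGTG), an ETS site (CCGGAAG), a TEAD site (GGAATG), a forkhead site (GTAAACA) or a CCAAT box (CCAAT), and none of these motifs contains another.
Ogn: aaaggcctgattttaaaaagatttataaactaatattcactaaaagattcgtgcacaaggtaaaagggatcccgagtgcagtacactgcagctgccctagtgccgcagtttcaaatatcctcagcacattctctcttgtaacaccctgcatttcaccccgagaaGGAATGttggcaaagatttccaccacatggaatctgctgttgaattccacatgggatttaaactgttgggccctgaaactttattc
Prss23: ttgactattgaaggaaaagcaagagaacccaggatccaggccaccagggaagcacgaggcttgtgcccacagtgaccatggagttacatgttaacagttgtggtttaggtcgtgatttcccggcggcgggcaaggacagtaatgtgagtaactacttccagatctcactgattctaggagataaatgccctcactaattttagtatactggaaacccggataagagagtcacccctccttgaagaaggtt
Upp1: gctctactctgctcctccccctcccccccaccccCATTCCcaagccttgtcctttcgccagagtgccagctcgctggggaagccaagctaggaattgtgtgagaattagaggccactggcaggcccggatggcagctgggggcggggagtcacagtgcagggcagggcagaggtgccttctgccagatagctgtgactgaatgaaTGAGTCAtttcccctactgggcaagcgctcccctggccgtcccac
Kcnk2: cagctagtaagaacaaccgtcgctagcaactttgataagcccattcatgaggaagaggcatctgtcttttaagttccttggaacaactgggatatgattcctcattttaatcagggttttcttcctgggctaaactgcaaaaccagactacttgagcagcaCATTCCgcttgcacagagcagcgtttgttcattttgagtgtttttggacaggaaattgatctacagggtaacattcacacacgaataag

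The Ogn window held the TEAD letters from 86 to 81 bases before the start, the Upp1 window held them from 216 to 211 and the AP-1 letters from 45 to 39, the Kcnk2 window held the TEAD letters from 89 to 84, and the Prss23 window held none of the 7 motifs. Over 18009 windows of measured genes, the AP-1 letters were in 5.60%, the cAMP response element in 2.13%, the E-box in 7.39%, the ETS site in 10.1%, the TEAD site in 11.5%, the forkhead site in 2.60% and the CCAAT box in 34.8%. The ETS letters were in 16.3% of the windows of lower genes and 9.90% of those of higher genes, against 13.9% of the windows of genes with a mean of at least 5. The AP-1 letters were in 4.64% and 5.33%, against 4.26%. These are counts of letters, and windows of one gene can overlap.

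Beyond single genes, 33 lists of pathways and families were described, with 1087 of 1153 entries measured. Well expressed genes were called more often, so the share of 21% higher and 12.4% lower among genes at 5 or above is the nearer background for them. Several lists had shares near this one or that of all genes. Higher and lower shares were 21.1% and 10.5% for RGS proteins and 14.8% and 11.1% for p38 and JNK cascades. They were 13.9% and 8.33% for SOX, FOX and GATA factors and 14.3% and 9.52% for the clock. For guidance genes they were 21.4% and 11.9%, for proteases 16.7% and 10%, for the tricarboxylic acid cycle 14.3% and 7.14%. PI3K, AKT and mTOR signalling had 23.5% and 11.8%, and DNA methylation and Polycomb 22.6% and 12.9%. Heparan sulphate and hyaluronan genes had 24.3% and 10.8%, nuclear receptors 15.4% and 5.13%, and glycosyltransferases 15.9% and 6.82%. Tetraspanins, with 22.2% and 3.70%, and metallothioneins and zinc transporters, with 20.8% and 4.17%, were near the background for higher genes. Such counts are not read as a result about the members. With the probe sets of each gene averaged, 40 of the 153 other named genes moved by more than 1.5 times, 38 of them to smaller values. Cldn1 went from 1.89 to 0.56, Cdh11 from 1.45 to 0.76, Robo1 from 0.73 to 0.22 and Kcnq5 from −0.83 to −0.35. Among these 153, Anxa2, Cdh6, Cldn3, Dcn, Eif2a, Ext1, Ezh1, Galnt11, Gcnt1, Mt1 and Ptbp3 then lost their calls (adjusted p = 0.0593 to 0.356).

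**Figure D3:**
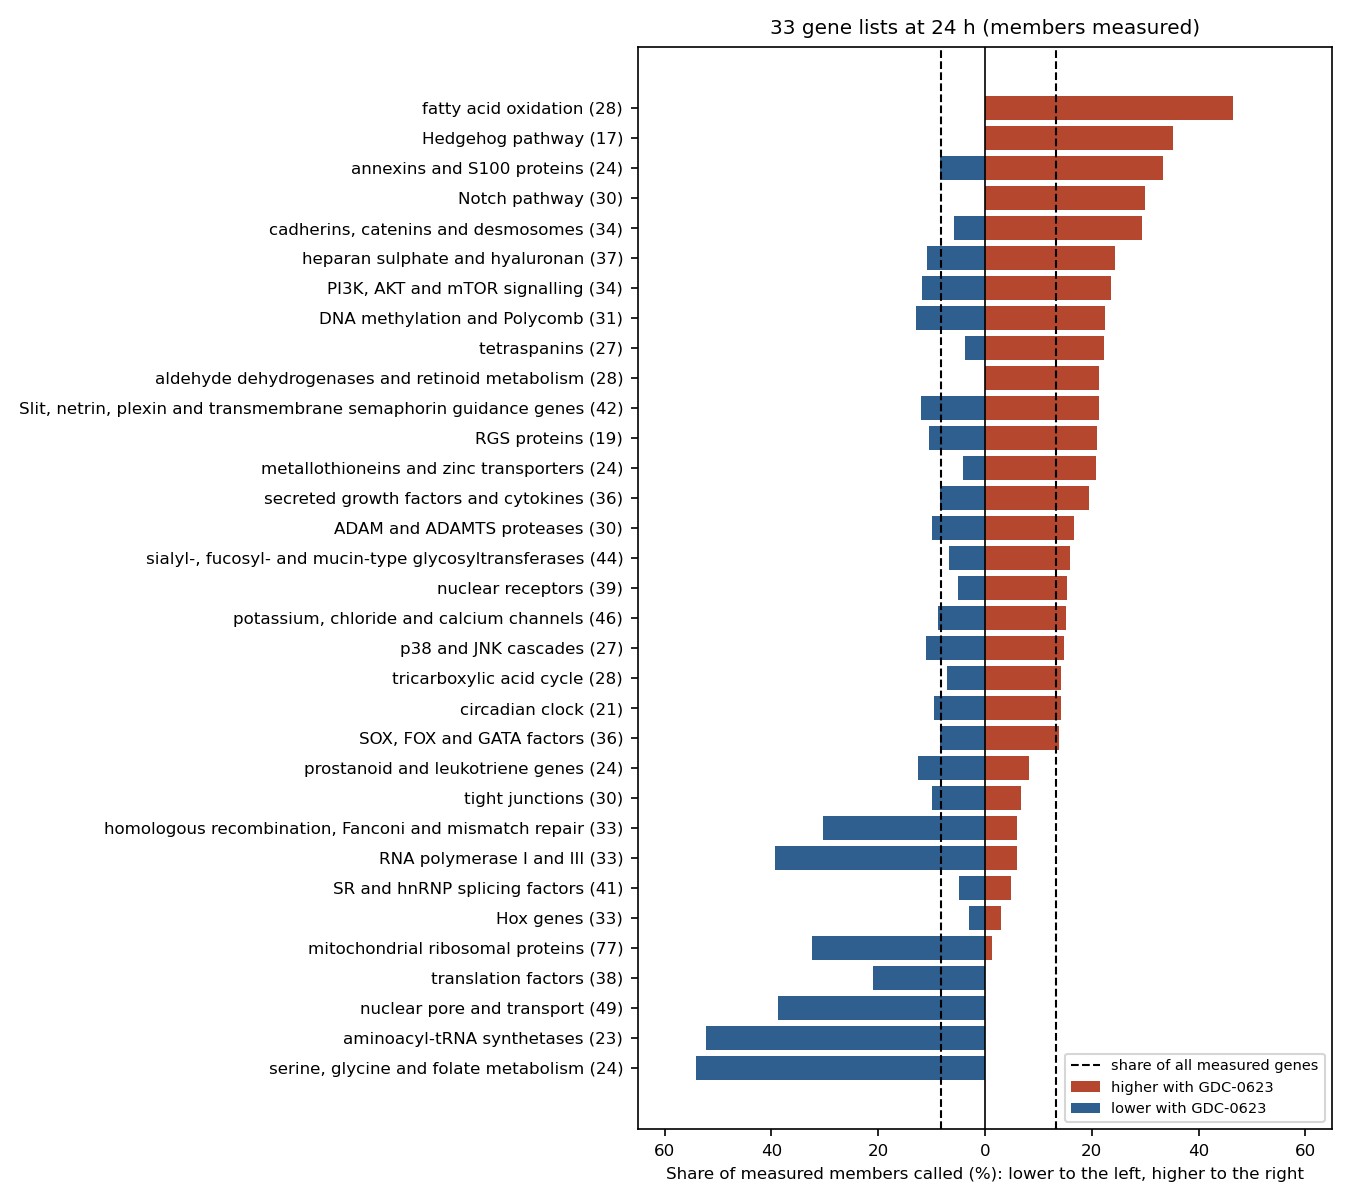
Share of measured members called lower (to the left) and higher (to the right) with GDC-0623 at 24 h (x axis, percent) for 33 gene lists (y axis, measured members in brackets). Dashed lines mark the shares over all genes, 8.23% lower and 13.3% higher; the largest shares were 46.4% higher for fatty acid oxidation and 54.2% lower for serine, glycine and folate metabolism.

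Among signalling lists, the Notch pathway had 9 of 30 members higher and none lower (median 0.10). The ligand Jag1 read 6.78, 6.95 and 6.60 in DMSO and 8.99, 8.67 and 8.37 with GDC-0623, a 3.73-fold rise seen on 3 of 3 probe sets (log2 fold change 1.90 ± 0.15, adjusted p = 5.03e-05). The ubiquitin ligase Dtx4, a regulator of Notch receptors, rose by 0.92, the signalling adaptor Numbl by 0.66, and Hes6 of the HES family by 0.54. In the Hedgehog pathway, 6 of 17 were higher and none lower (median 0.15). Gli1, a transcription factor and target of the pathway, read 6.21, 6.32 and 6.43 in DMSO and 7.09, 7.32 and 7.30 with GDC-0623 (log2 fold change 0.92 ± 0.09, adjusted p = 1.66e-04), and Ptch1, the receptor and likewise a target, read 8.70, 8.77 and 8.62 in DMSO and 9.60, 9.50 and 9.45 with GDC-0623 (log2 fold change 0.82 ± 0.07, adjusted p = 1.16e-04) with 1 of 3 probe sets called. The co-receptors Gas1 and Cdon rose by 0.50 and 0.79. With 15 and 11 members the counts of higher genes in the Notch and Hedgehog lists were larger when the groups were shifted to the controls, and no member became lower. Without GDC-0623 replicate 2, 1 Hedgehog member was called lower.

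The PI3K, AKT and mTOR list had 8 of 34 members higher and 4 lower (median 0.06). The regulatory subunits Pik3r3 (0.91 ± 0.09) and Pik3r1 (0.53 ± 0.07) rose, as did the stress-induced mTOR inhibitors Sesn3 (1.10 ± 0.15) and Sesn1 (0.78 ± 0.10), while the kinase Sgk1 fell by 1.16. One of the probe sets of Sesn1 was lower and 3 were higher. The count of higher members was 4 to 5 without DMSO replicate 1, 2 or 3 or without GDC-0623 replicate 1 or 2, and that of lower members 1 to 2 without DMSO replicate 1, 2 or 3 or without GDC-0623 replicate 1 or 2. RGS proteins, which end G protein signals, had 4 of 19 higher and 2 lower, led by Rgs2 with 6.35, 6.25 and 6.39 in DMSO and 8.10, 7.74 and 7.91 with GDC-0623 (log2 fold change 1.59 ± 0.10, adjusted p = 1.37e-05). In the p38 and JNK cascades 4 of 27 rose and 3 fell (median 0.00), with Gadd45g at 0.77 ± 0.09 and the p38 activating kinase Map2k3 at −0.52 ± 0.09. With the arrays scaled to the controls and with the groups shifted, the lower members numbered 1 and 1 in the PI3K list, 0 and 1 among RGS proteins and 2 and 2 in the p38 and JNK list.

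Secreted growth factors had 7 of 36 higher and 3 lower (median −0.05), shares of 19.4% and 8.33% that lay near the background. Pdgfc, a PDGF ligand, rose by 0.99, the receptor tyrosine kinase ligands Pros1 and Nrg1 by 0.61 and 0.53, and the lymphangiogenic factor Vegfd by 0.48, whereas Vegfa, Kitl and the cytokine Clcf1 fell by 0.44, 0.39 and 0.84. In the prostanoid list 2 of 24 rose and 3 fell, with the prostaglandin E synthase Ptges at −0.63 ± 0.10, its receptor gene Ptger4 at 0.58 ± 0.07 and the prostaglandin reductase Ptgr1 at 0.88 ± 0.09. The prostanoid shares, 8.33% and 12.5%, lay near those of all genes. Under the control scalings of arrays and of groups, lower members numbered 1 and 2 among the growth factors and 1 and 1 in the prostanoid list.

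Among nuclear receptors, 6 of 39 were higher and 2 lower (median 0.00). The vitamin D receptor Vdr read 5.28, 5.58 and 5.52 in DMSO and 7.43, 7.11 and 7.32 with GDC-0623 (log2 fold change 1.83 ± 0.11, adjusted p = 1.17e-05), the thyroid hormone receptor Thra and the retinoic acid receptor Rarg rose by 0.62 and 0.53, and the estrogen receptor Esr1 fell by 0.84. The count of higher members was 3 without DMSO replicate 3 or without GDC-0623 replicate 2 or 3. Among SOX, FOX and GATA factors, 5 of 36 were higher and 3 lower (median −0.08). Foxp2 read 5.25, 4.64 and 5.56 in DMSO and 6.96, 6.97 and 7.24 with GDC-0623 (log2 fold change 1.91 ± 0.20, adjusted p = 2.36e-04), its relative Foxp1 rose by 0.72 on 6 of 8 probe sets, and Sox2, a factor of stem cells, read 7.11, 7.22 and 7.02 in DMSO and 6.13, 6.54 and 6.29 with GDC-0623 (log2 fold change −0.80 ± 0.11, adjusted p = 0.00101). Foxp2 and Sox2 went in opposite directions, and non-overlap of the groups was a condition for naming them. The lower members numbered 1 and 1 for nuclear receptors and 2 and 2 for SOX, FOX and GATA factors with the arrays scaled and the groups shifted.

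Of 33 Hox genes, Hoxc4 rose by 0.30 at a level under 6 and Hoxd10 fell by 0.35, a share of 3.03% in each direction. The first call was lost without DMSO replicate 1 or 2 or without GDC-0623 replicate 1 or 2 (adjusted p = 0.0855 to 0.125), the second was lost without DMSO replicate 1, 2 or 3 or without GDC-0623 replicate 1 or 3 (adjusted p = 0.0527 to 0.113). In the circadian clock list 3 of 21 rose and 2 fell. Bhlhe40 and Nfil3, repressors of the clock loop, rose by 0.74 and 0.61, and the repressors Ciart and Cry1 fell by 0.57 and 0.37, the call of Cry1 being lost without DMSO replicate 1, 2 or 3 or without GDC-0623 replicate 1 or 3 (adjusted p = 0.0517 to 0.106). Of 31 genes of DNA methylation and Polycomb, 7 rose and 4 fell (median 0.00). The DNA methyltransferase Dnmt3a (0.60 ± 0.07), the 5-methylcytosine oxidase Tet2 (0.56 ± 0.09) and the histone methyltransferase Ezh1 (0.67 ± 0.08) rose, and the Polycomb protein Phc2 (−0.71 ± 0.08) fell. The count of higher members was 4 without DMSO replicate 2 or 3 or without GDC-0623 replicate 1 or 2. With the arrays scaled and with the groups shifted, 1 and 2 members of this list were lower, 1 and 1 of the clock list and 0 and 0 of the Hox genes.

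At the cell surface, cadherins, catenins and desmosomal genes had 10 of 34 members higher and 2 lower (median 0.06), although 18 of the 34 were below 5. The atypical cadherin Fat4 rose from dim values, with 4.59, 4.37 and 4.15 in DMSO and 6.91, 6.68 and 6.25 with GDC-0623 (log2 fold change 2.24 ± 0.16, adjusted p = 3.50e-05), and Cdh11, a cadherin of mesenchymal cells, rose by 1.45. The protocadherins Pcdh19, Pcdh18, Pcdh7 and Pcdh17 rose by 1.01, 0.61, 0.54 and 0.57. The 2 lower members, Cdh6 and Cdhr1, were dim in both groups, and the call of Cdh6 was lost without DMSO replicate 1, 2 or 3 or without GDC-0623 replicate 2 or 3 (adjusted p = 0.0593 to 0.0867) and that of Cdhr1 was lost without DMSO replicate 2 or 3 or without GDC-0623 replicate 1 or 2 (adjusted p = 0.0502 to 0.0852). Tight junction genes had 2 higher and 3 lower of 30. Cldn1 rose by 1.89 ± 0.15 from a dim mean of 3.53, with 1 of its 4 probe sets called, and by 0.56 with its probe sets averaged. Amotl2 stood at 0.60 ± 0.08, and Cxadr, Cldn12 and Cldn3 at −1.08, −0.31 and −0.24. The call of Cldn12 was lost without DMSO replicate 2 or without GDC-0623 replicate 1 (adjusted p = 0.0668 to 0.0830), that of Cldn3 was lost without DMSO replicate 1, 2 or 3 or without GDC-0623 replicate 1, 2 or 3 (adjusted p = 0.0507 to 0.114). Lower members of the cadherin list numbered 0 and 0 under the scalings of arrays and of groups, and those of the tight junction list 1 and 1.

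Tetraspanins, membrane organizers, had 6 of 27 higher and 1 lower, and Cd81 was the largest change at 10.90, 10.86 and 10.84 in DMSO and 12.04, 11.85 and 11.87 with GDC-0623 (log2 fold change 1.05 ± 0.07, adjusted p = 3.09e-05). Annexins and S100 proteins, which bind calcium, had 8 of 24 higher and 2 lower (median 0.09), with S100a13 at 1.18 ± 0.09, Anxa6 at 0.82 ± 0.15, Anxa3 at 0.52 ± 0.07 and Anxa2 at 0.35 ± 0.07. Among Slit, netrin, plexin and semaphorin guidance genes, 9 of 42 were higher and 5 lower (median −0.04). The netrins Ntn4 and Ntn1 rose by 1.66 and 0.77 and the receptors Plxna2 and Robo1 by 0.96 and 0.73, while the Robo ligand Slit2 fell by 0.65. When arrays were scaled and when groups were shifted, lower members numbered 0 and 0 for tetraspanins, 0 and 1 for annexins and S100 proteins and 3 and 3 for guidance genes.

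ADAM and ADAMTS proteases had 5 of 30 higher and 3 lower. Beside Adamts5, Adamts1 rose by 1.50, and the membrane protease Adam8 and Adamtsl3 fell by 0.81 and 0.74. Of 37 heparan sulphate and hyaluronan genes, 9 rose and 4 fell (median 0.00). The glypicans Gpc1 (0.81 ± 0.07) and Gpc4 (0.51 ± 0.09), the chain elongating enzyme Ext1 (0.44 ± 0.08) and the sulphatase Sulf2 (0.56 ± 0.12) rose, and the hyaluronan receptor Cd44 (−0.31 ± 0.07) fell, a call lost without DMSO replicate 2 or without GDC-0623 replicate 1 (adjusted p = 0.0561 to 0.0705). Of 44 glycosyltransferases, 7 rose and 3 fell. The sialyltransferase St3gal2 rose by 0.74 and its relative St3gal4 fell by 0.66. Of 46 ion channel genes, 7 rose and 4 fell (median −0.03), shares of 15.2% and 8.70% that lay near those of all genes. The 4 falls were the potassium channels Kcnk2, Kcnq5 (−0.83 ± 0.11), Kcnn4 (−0.78 ± 0.10) and Kcnk5 (−0.55 ± 0.11). How many of the 46 were potassium channels was not counted, so no effect on potassium channels is read from this. The count of higher channels was 4 without DMSO replicate 2 or 3. The control scalings of arrays and of groups left 2 and 3 lower proteases, 1 and 1 lower heparan sulphate and hyaluronan genes, 1 and 1 lower glycosyltransferases and 4 and 4 lower channels.

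Metabolic genes split by pathway. Fatty acid oxidation had the largest share of higher members of all 33 lists, with 13 of 28 higher (46.4%) and none lower (median 0.23). Cpt1a, which carries out the rate-limiting step of fatty acid entry into mitochondria, read 7.60, 7.32 and 7.60 in DMSO and 8.49, 8.16 and 8.50 with GDC-0623 (log2 fold change 0.88 ± 0.11, adjusted p = 8.41e-04). The acyl-CoA dehydrogenases Acadsb (0.65), Acadl (0.45) and Acadm (0.43), the dienoyl-CoA reductase Decr1 (0.49) and the carnitine carrier Slc25a20 (0.43) rose by smaller amounts. Each of these changes was below 2-fold. Leaving out 1 array gave between 9 and 12 higher members, and with the control scaling 17 were higher.

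Serine, glycine and folate metabolism, which supplies carbon units for nucleotide synthesis, went the other way, with 13 of 24 members lower (54.2%) and none higher (median −0.31). Shmt1, the cytosolic serine hydroxymethyltransferase, read 8.81, 8.89 and 8.87 in DMSO and 7.61, 7.82 and 7.99 with GDC-0623, and all 4 of its probe sets were lower (log2 fold change −1.05 ± 0.10, adjusted p = 1.25e-04). Cth, the last enzyme of cysteine synthesis from methionine, read 7.07, 7.36 and 6.99 in DMSO and 5.82, 6.33 and 6.14 with GDC-0623 (log2 fold change −1.04 ± 0.14, adjusted p = 9.00e-04). The mitochondrial folate enzyme Mthfd2 read 10.65, 10.67 and 10.68 in DMSO and 9.78, 10.04 and 10.15 with GDC-0623 (log2 fold change −0.68 ± 0.10, adjusted p = 0.00129). In these 3 genes the treated arrays lay at least 0.5 below the DMSO arrays, where separate groups were a condition for naming them. Mthfd1, Shmt2, Psat1 and Psph fell by 0.61, 0.54, 0.52 and 0.45. With the arrays scaled to the controls 7 members were lower, with the groups shifted 10, and the median was −0.16.

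The tricarboxylic acid cycle list had 4 of 28 higher and 2 lower (median −0.04). Idh1, the cytosolic isocitrate dehydrogenase, was the largest change, at 7.94, 7.68 and 7.69 in DMSO and 9.71, 9.35 and 9.33 with GDC-0623 (log2 fold change 1.69 ± 0.12, adjusted p = 2.50e-05), and the mitochondrial Idh2 rose by 0.46 while the cycle enzyme Idh3a fell by 0.40. Among aldehyde dehydrogenases and retinoid genes, 6 of 28 rose and none fell, but the largest, Aldh1a7 (2.36 ± 0.20) and the retinoic acid binding protein Crabp2 (1.60 ± 0.22), stayed below 6 in both groups. Of 24 metallothionein and zinc transporter genes, 5 rose and 1 fell. The metallothioneins Mt2 and Mt1 rose by 0.76 and 0.34 from levels above 11, and the zinc importer Slc39a14 fell by 0.84. The call of Mt1 was lost without DMSO replicate 2 (adjusted p = 0.0538), and the count of higher members of the list was 2 to 3 without DMSO replicate 1 or 2. Lower members under the scalings of arrays and of groups numbered 0 and 1 for the tricarboxylic acid cycle and 1 and 1 for metallothioneins and zinc transporters.

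The machinery of RNA and protein synthesis fell by small amounts across several lists, and most of these calls depended on the scaling. RNA polymerase I and III genes had 13 of 33 lower and 2 higher (median −0.18). The polymerase I subunit Polr1b read 9.06, 9.13 and 9.12 in DMSO and 8.18, 8.50 and 8.52 with GDC-0623 (log2 fold change −0.70 ± 0.10, adjusted p = 0.00113), and Polr1e, Polr3e and Polr3g fell by 0.65, 0.53 and 0.52. With the arrays scaled to the controls 4 members were lower, and 5 with the groups shifted. The count was 7 to 8 without DMSO replicate 1 or 3. Aminoacyl-tRNA synthetases and their partners had 12 of 23 lower and none higher (median −0.23, every member below 0), for instance Tars with 11.48, 11.36 and 11.41 in DMSO and 10.96, 10.94 and 11.08 with GDC-0623 (log2 fold change −0.42 ± 0.07, adjusted p = 0.00362) and Rars (−0.38 ± 0.07), but none was lower with the arrays scaled to the controls and 3 with the groups shifted. With the deposited scaling the count was 6 without DMSO replicate 1, 2 or 3 or without GDC-0623 replicate 1 or 2. The other alternatives, a minimum fold aside, gave 10 to 21 lower polymerase genes and 9 to 16 lower synthetases.

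Mitochondrial ribosomal proteins had 25 of 77 lower and 1 higher (median −0.17). Mrps6 was the largest at 12.01, 11.96 and 11.92 in DMSO and 10.91, 11.06 and 11.19 with GDC-0623 (log2 fold change −0.91 ± 0.08, adjusted p = 1.25e-04), followed by Mrps27 (−0.56 ± 0.08) and Mrps35 (−0.48 ± 0.08), and the member that rose, Lactb (0.52 ± 0.07), is listed for its older name of Mrpl56 and is a protease-like protein. The count of lower members was 2 with the arrays scaled to the controls, 5 with the groups shifted, and 12 to 13 without DMSO replicate 1 or 2 or without GDC-0623 replicate 1. It reached 29 without another array, and was 24 to 42 under the other alternatives, a minimum fold aside. Nuclear pore and transport genes had 19 of 49 lower and none higher (median −0.20). Rcc1, which loads the transport GTPase Ran, read 9.66, 9.71 and 9.80 in DMSO and 8.81, 8.98 and 9.17 with GDC-0623 (log2 fold change −0.74 ± 0.10, adjusted p = 8.62e-04), and the pore proteins Nup37 and Ndc1 fell by 0.57 and 0.53. The count was 3 with the arrays scaled to the controls, 10 with the groups shifted, and 11 to 12 without DMSO replicate 2 or 3 or without GDC-0623 replicate 1. Under the other alternatives, a minimum fold aside, 16 to 28 were lower.

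Translation factors had 8 of 38 lower and none higher (median −0.13), a share of 21.1%, where 104 of 801 genes at 11 or above were lower, and Eif1ad was the largest at −0.45 ± 0.07. With the arrays scaled to the controls none was lower and the median was 0.02, and 1 was lower with the groups shifted. With the deposited scaling the count was 3 to 5 without DMSO replicate 1, 2 or 3 or without GDC-0623 replicate 1. SR and hnRNP splicing factors had 2 of 41 lower and 2 higher, with Mbnl3 at −0.58 ± 0.08 and Mbnl1 at 0.35 ± 0.07. Their median of −0.13 was 0.02 with the arrays scaled as well, with 1 and 1 lower under the scalings of arrays and of groups. Genes of homologous recombination, the Fanconi pathway and mismatch repair had 10 of 33 lower and 2 higher (median −0.13), among them Exo1 (−0.44 ± 0.08), Fancb (−0.44 ± 0.09), Msh3 (−0.43 ± 0.09) and Palb2 (−0.42 ± 0.10). None of the 33 was lower with the arrays scaled to the controls and 2 with the groups shifted, and the median was 0.02 with the arrays scaled. With the deposited scaling the count was 3 to 4 without DMSO replicate 1, 2 or 3 or without GDC-0623 replicate 1. The medians of the translation, splicing and repair lists moved only by the 0.15 common to all genes. Relative to the median of all genes they stood at −0.105, −0.10 and −0.10 with and without this scaling. The call of Palb2 was lost without DMSO replicate 2 or 3 or without GDC-0623 replicate 1 (adjusted p = 0.0622 to 0.0728). Under the other alternatives, a minimum fold aside, 7 to 18 translation factors, 1 to 10 splicing factors and 4 to 13 repair genes were lower.

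**Figure D4:**
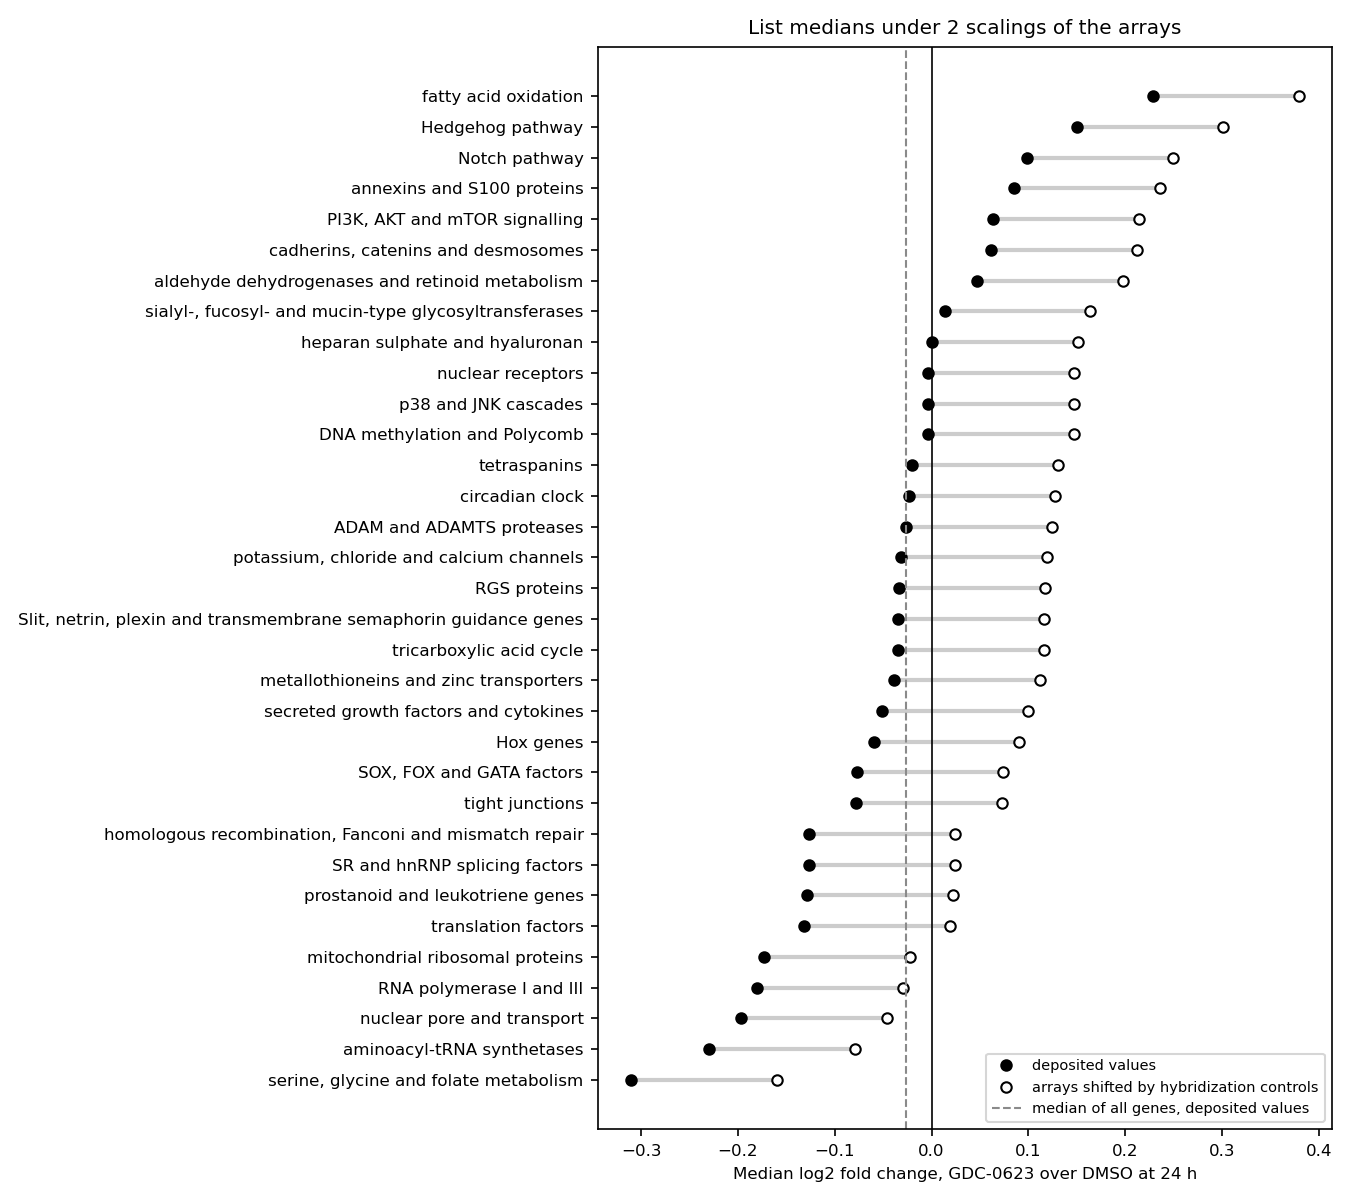
Median log2 fold change of GDC-0623 over DMSO at 24 h (x axis) for 33 gene lists (y axis), with the deposited values (filled) and with the arrays scaled to their hybridization controls (open). Each list moves up by the same 0.15, so the order of the lists cannot change. The lowest medians under the second scaling are −0.16 for serine, glycine and folate metabolism and −0.08 for aminoacyl-tRNA synthetases.

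Most of the response at 24 h was also present at 72 h, which was measured on other arrays with the same replicate numbers. Of the 2421 higher genes, 1709 (70.6%) were higher at 72 h too, where 13.8% of all genes were higher, and they made up 67.8% of the 2519 higher genes of that time. Of the 1497 lower genes, 1080 (72.1%) were lower at 72 h, where 12.4% of all genes were lower, and they made up 47.8% of the 2261 lower genes. A call in the opposite direction was found for 14 higher and 6 lower genes. All 30 of the largest rises and all 30 of the largest falls named above were called in the same direction at 72 h.

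The size of the effect differed between the times in 561 genes, or 3.08% of those tested, by the contrast of the effects on the 12 arrays. Without DMSO 24 h replicate 1 or 2 this count was 369 or 367, without GDC-0623 24 h replicate 2 it was 360, and without DMSO 72 h replicate 2 it was 352. Among genes higher at 24 h it differed in 241, with a larger rise at 72 h in 153, a smaller rise in 31 and a turned sign in 57. Among genes lower at 24 h it differed in 74, with a larger fall at 72 h in 55, a smaller fall in 3 and a turned sign in 16. The proteoglycan Fmod went from 2.80 to 5.02 (difference 2.23 ± 0.25, adjusted p = 4.21e-04), Rspo2 from 2.47 to 4.32 (adjusted p = 0.0472), and the matricellular protein Ccn2 from 1.58 to 3.70 (adjusted p = 0.00164). Ccn2 had a lower DMSO mean at 72 h, 6.87 against 8.05. Decorin, Dcn, and Mndal rose slightly at 24 h, by 0.56 and 0.47, and by 2.50 and 2.51 at 72 h (adjusted p = 0.00231 and 0.00104). The 24 h call of Dcn was lost without DMSO replicate 3 or without GDC-0623 replicate 1 or 2 (adjusted p = 0.0896 to 0.123), that of Mndal was lost without GDC-0623 replicate 1 or 2 (adjusted p = 0.0644 to 0.0712).

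Other effects were smaller at 72 h or turned. Tubb2b stood at 2.75 at 24 h and 1.30 at 72 h (adjusted p = 0.0179). Nqo1, a quinone reductase of the oxidative stress response, read 6.33, 6.0 and 7.09 in DMSO and 7.57, 7.13 and 7.89 with GDC-0623 at 24 h, which do not overlap, and was higher by 1.06, and was lower by 0.85 at 72 h (difference −1.90 ± 0.38, adjusted p = 0.0159). Gcnt1, a branching enzyme of mucin-type glycans, likewise went from 0.54 to −1.04 (adjusted p = 0.00106). The 24 h call of Nqo1 was lost without DMSO replicate 1 or 2 or without GDC-0623 replicate 1 or 3 (adjusted p = 0.0707 to 0.0872), that of Gcnt1 was lost without DMSO replicate 2 or 3 or without GDC-0623 replicate 1 or 2 (adjusted p = 0.0508 to 0.0857). Pdgfc, at 0.99 early, stood at 0.09 late (adjusted p = 0.0213). Car6, a carbonic anhydrase, and Cxadr fell more at 72 h, to −2.84 and −2.99, and both had higher DMSO means at 72 h (9.35 and 7.91) than at 24 h (6.74 and 6.14), so the controls differed between the times as well.

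**Figure D5:**
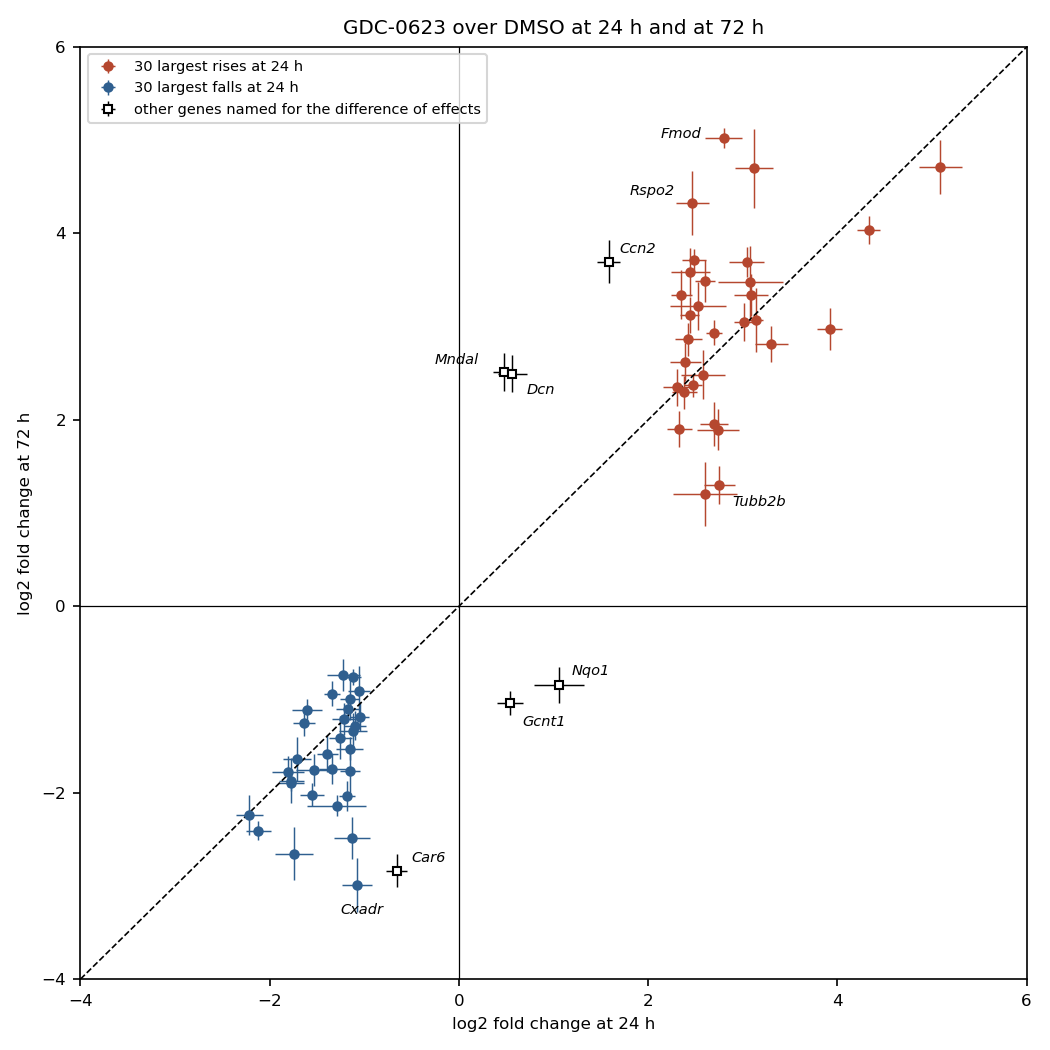
Log2 fold change of GDC-0623 over DMSO at 24 h (x axis) and at 72 h (y axis) for the 30 largest rises and 30 largest falls at 24 h outside ERK output and interferon genes and for other genes named for a difference of effects; bars are standard errors of the fit and the dashed line marks equal effects. All 60 of these largest changes keep their direction, and Nqo1 and Gcnt1 lie above 0 at 24 h and below 0 at 72 h.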

How the data were processed

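RNA of MC38 cultures was labelled and hybridized to Affymetrix whole-genome mouse arrays, 1 per culture, and the authors ran RMA in Chipster after quality control and deposited the result on the log2 scale. The version of RMA is not given in the sources used here. Of 45101 probe sets, 64 controls were left out and 45037 tested. The platform annotation gave 1 symbol for 34945 probe sets, several for 932 and none for 9160, and symbols were updated through gene identifiers for 34741. A gene was represented by its probe set with a single symbol and the highest mean over the 12 arrays. Arrays carry no read depth, so their number limits the precision.

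GDC-0623 was compared with DMSO at 24 h with limma 3.58.1 in R 4.3.3 (lmFit and eBayes, two-sided, 6 arrays, Benjamini-Hochberg over all probe sets, threshold 0.05), and standard errors are moderated. The difference between the 72 h and 24 h effects was a contrast in a fit over all 12 arrays. The procedure was tested on simulated data in which 67 of 45037 probe sets were changed by 0.5 on the log2 scale, 67 by 1 and 66 by 2. At 24 h it recovered 41.8% of log2 changes of 0.5 and 92.5% of those of 1. For the difference of effects the shares were 29.9% and 88.1%. In the data 7533 probe sets were called at 24 h, far more than were changed in the simulation. The Benjamini-Hochberg cutoff depends on that number, so these shares do not give the share of small changes missed here. The p-values weigh the difference between groups against the moderated spread between arrays of a group.

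Named genes were the 30 largest rises and 30 largest falls among genes that passed, did not overlap between groups, reached 6 in the higher group and were on neither the ERK output nor the interferon list, up to 4 members per list under the same conditions, and the 5 largest differences of effects of each sign. Another 25 called genes of lists or marker classes, and those named as not called, were chosen after their values were seen. The lists and members were chosen with earlier results of these data known. Promoters are RefSeq windows on GRCm38.p6. Alternatives covered scaling, filters, probe set choice, the variance prior, array weights, a replicate block and leaving out each array. Figures were drawn with matplotlib 3.10 in Python 3.11.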

Additional observations from a re-analysis of the deposited data

Results flagged for a closer look

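The effect of GDC-0623 at 72 h differed from that at 24 h, by the contrast of the 2 effects in a limma fit over the 12 arrays, for these named genes. Each value is the log2 fold change at 72 h minus that at 24 h.

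A rise was larger at 72 h for Fmod (2.23), Ccn2 (2.11), Cldn1 (2.08), Mndal (2.04), Dcn (1.93), Rspo2 (1.86), Aldh1a7 (1.79), Omd (1.23), Pcdh17 (1.10), Vdr (1.08), Vegfd (0.77), Gpc4 (0.74), Pcdh18 (0.58), Pros1 (0.56) and Mbnl1 (0.51). A fall was larger at 72 h for Car6 (−2.18), Cxadr (−1.91), Adam8 (−1.44), Cth (−1.41), Adamtsl3 (−1.08), Phlda2 (−0.86), Psph (−0.63) and Foxc2 (−0.61).

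A rise was smaller at 72 h for Tubb2b (−1.46), Pdgfc (−0.90), Idh1 (−0.71), Ptgr1 (−0.63) and Dtx4 (−0.63), and a fall was smaller for Slit2 (0.54). The sign of the effect turned for Cd44 (0.55), Gcnt1 (−1.58) and Nqo1 (−1.90). The highest adjusted p among these contrasts was that of Rspo2 (0.0472).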

How the results depend on the processing

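The count of higher genes, 2421, was 3407 with the arrays scaled to the hybridization controls and 4922 with each group shifted by its controls, an alternative chosen after seeing the data. The count of lower genes, 1497, was 416 and 630 under these scalings. Scaling the arrays one by one also raised the prior degrees of freedom of the variance from 5.35 to 6375. A minimum fold of 2 left 285 higher and 52 lower genes. Without 1 array, between 1836 and 2097 genes were higher and between 935 and 1316 lower. The effect differed between the times for 561 genes with all arrays, for 852 with a filter on dim probe sets, for 1631 with the groups shifted, for 181 with a minimum fold of 2, and for 352 to 661 without 1 array.

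Replicate numbers were not taken to pair the samples. Deviations from the group mean correlated at 0.0902, 0.118 and 0.0135 between same-numbered DMSO and GDC-0623 arrays at 24 h, not every array correlated best with its own number, and the numbers are not stated to mark a shared batch. With the replicate number as a block, 2259 genes were higher, 1345 lower, and the effect differed for 710. Over all 4 groups, 17 of 18 same-numbered pairs correlated above 0 and 7 above 0.1. Between the times the correlations were 0.289, 0.0618 and 0.159 with GDC-0623 and 0.109, 0.159 and 0.0678 in DMSO. With a block for each treatment and number, chosen after seeing the data, the effect differed between the times for 692 genes, of which 494 were among the 561.

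No named gene changed its direction in any alternative. Of 213, 133 lost the call with a minimum fold of 2, 29 with the arrays scaled to the controls, 17 with the groups shifted, 11 with the probe sets of each gene averaged, 7 with 1 fit over 12 arrays, 3 with the replicate block, 3 with a trended and robust prior, 2 with quantile normalization repeated, none with array weights, none of the 211 that passed the dim filter (Cdh6 and Cdhr1 did not pass it), and between 8 and 17 without 1 array. Of 66 list counts, 30 moved by over 1.5 times with the arrays scaled to the controls, 45 with the groups shifted, and 8 to 24 without 1 array, many of them counts of 5 or fewer. The cause was not tested. RMA values carry no detection call, so changes that begin or end under 5 are limited by background.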
